A study of Mus musculus with 6 samples.

Results

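The circadian clock genes described here are 10 genes taken by symbol from the deposited table of 25140 genes. They are *Arntl* (also called Bmal1), *Clock*, *Per1*, *Per2*, *Per3*, *Cry1*, *Cry2*, *Nr1d1*, *Nr1d2* and *Dbp*. All 10 were found, each in 1 row of counts, and all 10 passed the filter on low counts that left 14334 genes for testing. The rule that takes them uses their symbols and no measured value, although the set was proposed with earlier results of these data known.

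Poly(A) RNA was measured in primary cardiac fibroblasts from the adult heart of C57BL/6 mice, cultured to passage 1 in medium with 25 mM glucose and 10% fetal bovine serum (FBS). At 16 h before treatment, FBS was lowered to 1% in every culture. The TGFβ group (n = 3 libraries) then received TGFβ at 10 ng/mL for 24 h, and the vehicle group (n = 3 libraries) was kept without TGFβ for the same time, with the composition of the vehicle not given. No genetic change was used in either group. TGFβ is a profibrotic cytokine under which fibroblasts become contractile myofibroblasts that lay down matrix, and the comparison asks which transcripts differ after that stimulus. The columns of the table name the group of a library but not its number, so the libraries are called a, b and c in column order within each group, and equal letters do not pair libraries. The study's methods speak of 3 biological replicates without saying whether they came from separate animals, so p-values measure the spread between these libraries.

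The circadian clock is a transcriptional feedback loop present in nearly every cell, cultured fibroblasts included. ARNTL pairs with CLOCK or with its relative NPAS2, binds E-boxes and switches on the *Per*, *Cry*, *Nr1d* and *Dbp* genes, whose products act back on the loop. PER and CRY proteins inhibit ARNTL and CLOCK, the nuclear receptors NR1D1 and NR1D2 (REV-ERBα and REV-ERBβ) repress *Arntl* through RORE sites that ROR receptors activate, and DBP drives genes with D-boxes. A change of medium or serum is known to set the phase of this loop in cultured fibroblasts. In these data all cultures were harvested at 1 time after treatment, so a shift of phase and a change of mean level cannot be told apart, and no rhythm was measured. In bulk RNA, fewer cells of a type and less RNA per cell cannot be told apart either.

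The library totals ranged from 27851677 to 31072338 counts, and the spread between replicates was larger than counting error over all genes, with a chi-square per gene of 7.95 to 27.1 between libraries of a group. The treatment check was positive: *Acta2* (smooth muscle actin) was higher with TGFβ by 1.03 on the log2 scale and *Postn* (periostin) by 1.55, with edgeR adjusted p of 6.93e-05 and 6.49e-05. Both come from a list of 7 TGFβ targets, of which 6 were tested. In that list 5 were higher, where 20.5% of all genes tested were higher, and 1 did not pass. The log2 fold changes of the list ran from 0.02 to 1.74. The 11 cardiac fibroblast markers, all tested, had a median log2 fold change of -0.25 and a range from -1.37 to 0.23. Of these, 7 were lower with TGFβ, where 20.1% of all genes tested were lower. These 7 include *Pdgfra*, the largest fall of the list (-1.37), and *Tcf21* (-1.05), with edgeR adjusted p of 1.77e-05 and 3.88e-06. The markers higher with TGFβ numbered 0 by edgeR, 1 at an unadjusted p under 0.05, and 1 each by limma-voom and DESeq2. The summed level of 6 endothelial markers lay between 355.8 and 594.5 CPM (read counts put on 1 common scale of library size) in the vehicle libraries and between 302.4 and 460.4 CPM with TGFβ, that of 6 leukocyte markers between 230.1 and 329.5 CPM and between 197.6 and 296.6 CPM, and 0 of either list passed edgeR's test, at an unadjusted p under 0.05 or by limma-voom or DESeq2. Of 12 proliferation genes, 9 were lower with TGFβ, where 20.1% of all genes tested were lower (summed levels 179.7 to 201.6 CPM against 123.5 to 148.8 CPM). Of 6 mural cell markers only *Notch3* passed, lower with TGFβ, with summed levels of 248.4 to 272.2 CPM against 100.6 to 134.4 CPM. The median log2 fold change of these mural markers was 0.08 and the highest 0.53, so the lower sum was not shared across the list. The 6 cardiomyocyte markers summed to 38.54 to 59.71 CPM against 27.36 to 40.58 CPM. Of these 6, 3 were tested and 0 passed by edgeR or limma-voom. At an unadjusted p under 0.05 in edgeR 1 was lower, and DESeq2 called 1 lower. The 11 cardiac fibroblast markers summed to 38190 to 42730 CPM with vehicle and 41630 to 45040 CPM with TGFβ, so their sum did not fall. Such a sum weighs the most abundant markers most, and 7 of the 11 were lower when taken singly. The list includes the collagen genes *Col1a1* and *Col1a2*, and the study counts *Col1a1* among key myofibroblast genes. The sum therefore does not show whether the share of fibroblasts held. The part of these cell types, of the fall of 7 fibroblast markers and of cell division in the clock gene values was not tested.

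Promoter sequences are shown first for some of the genes named later, whether or not they passed the test, so that RORE and E-box letters can be seen in place. RefSeq promoter windows of GRCm38.p6, which run from 250 bases before to 50 bases after an annotated start, were given for 9 of the 10 clock genes. No window was given for *Per2*. The windows of *Arntl* (start 2, chr7:113207261-113207560, plus strand) and *Nfil3* (chr13:52980990-52981289, minus strand) each hold 1 exact match to the RORE core TAGGTCA, on the reverse strand in *Nfil3*. The windows of *Ciart* (chr3:95882179-95882478, minus strand) and *Per1* (start 1, chr11:69098699-69098998, plus strand) hold 3 matches and 1 match to the E-box CACGTG. The windows of *Nr1d1* (chr11:98775328-98775627, minus strand), with 1 match to the E-prime box CACGTT on the reverse strand, and *Nr1d2* (chr14:18239057-18239356, minus strand), with none of the motifs searched, allow the REV-ERB genes to be compared. Each sequence reads 5′ to 3′ along the strand of its gene, and capitals mark the matches.
Arntl: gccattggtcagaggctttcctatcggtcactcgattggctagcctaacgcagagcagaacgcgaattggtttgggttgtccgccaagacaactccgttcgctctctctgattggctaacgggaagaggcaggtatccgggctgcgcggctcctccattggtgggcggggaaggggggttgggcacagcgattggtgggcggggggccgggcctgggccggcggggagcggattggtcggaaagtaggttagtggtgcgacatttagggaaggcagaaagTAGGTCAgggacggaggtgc
Nfil3: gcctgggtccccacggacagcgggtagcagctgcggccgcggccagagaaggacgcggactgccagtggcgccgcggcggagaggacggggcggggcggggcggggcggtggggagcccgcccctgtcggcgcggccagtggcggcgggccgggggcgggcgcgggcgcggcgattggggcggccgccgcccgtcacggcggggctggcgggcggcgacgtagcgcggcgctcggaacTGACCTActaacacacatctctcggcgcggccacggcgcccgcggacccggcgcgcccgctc
Ciart: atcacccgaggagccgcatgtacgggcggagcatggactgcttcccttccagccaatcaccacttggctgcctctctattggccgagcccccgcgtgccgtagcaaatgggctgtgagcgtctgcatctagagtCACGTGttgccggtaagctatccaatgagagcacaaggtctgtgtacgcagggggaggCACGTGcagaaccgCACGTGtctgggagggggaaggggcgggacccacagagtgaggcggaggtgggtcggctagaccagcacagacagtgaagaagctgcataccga
Per1: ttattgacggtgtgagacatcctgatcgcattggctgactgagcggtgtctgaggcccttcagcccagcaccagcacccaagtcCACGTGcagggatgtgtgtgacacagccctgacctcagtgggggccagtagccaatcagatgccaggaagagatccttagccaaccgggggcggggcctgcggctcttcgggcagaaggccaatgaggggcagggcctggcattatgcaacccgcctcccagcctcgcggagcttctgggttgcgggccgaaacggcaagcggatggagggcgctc
Nr1d1: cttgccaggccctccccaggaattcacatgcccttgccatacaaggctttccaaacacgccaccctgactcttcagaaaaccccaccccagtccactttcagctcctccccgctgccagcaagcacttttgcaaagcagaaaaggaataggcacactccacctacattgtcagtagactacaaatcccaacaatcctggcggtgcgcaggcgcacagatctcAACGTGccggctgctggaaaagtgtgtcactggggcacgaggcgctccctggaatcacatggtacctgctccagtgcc
Nr1d2: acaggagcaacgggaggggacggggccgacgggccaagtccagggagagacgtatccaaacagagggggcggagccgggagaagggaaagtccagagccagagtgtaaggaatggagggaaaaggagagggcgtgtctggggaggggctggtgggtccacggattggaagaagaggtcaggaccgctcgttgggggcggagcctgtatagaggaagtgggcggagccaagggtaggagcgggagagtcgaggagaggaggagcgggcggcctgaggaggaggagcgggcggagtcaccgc

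The motifs were searched as exact letters on both strands: the E-box CACGTG, the E-prime box CACGTT, the RORE core TAGGTCA, the D-box as TTATGTAA or TTACGTAA, the cAMP response element (CRE) TGACGTCA, which can respond to calcium and cAMP signals, and the SMAD palindrome GTCTAGAC, the letters that SMAD proteins downstream of TGFβ can bind. Of 32851 promoter windows of the same length, 7.15% held the E-box, 4.68% the E-prime box, 2.61% the RORE core, 1.06% a D-box, 1.79% the CRE and 0.213% the SMAD palindrome. Among the clock genes, 6 of the 9 with a window held at least 1 match. Some of them had more than a single window, and the share of genes with any match was not counted over all promoters. No enrichment is therefore read from this count. The RORE core of *Arntl* stood at base 31 after start 2, and the E-box of *Per1* at base -166 of start 1. *Cry1* held an E-box at base -60 and an E-prime box at base -79, *Cry2* an E-prime box at base -166, *Nr1d1* an E-prime box at base -28, and *Per3* 2 D-boxes at bases -205 and -158. *Clock*, *Nr1d2* and *Dbp* held none of these letters in their windows, and no clock gene window held the SMAD palindrome. A match is a description of the letters and was not tested as a binding site.

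**Figure D1:**
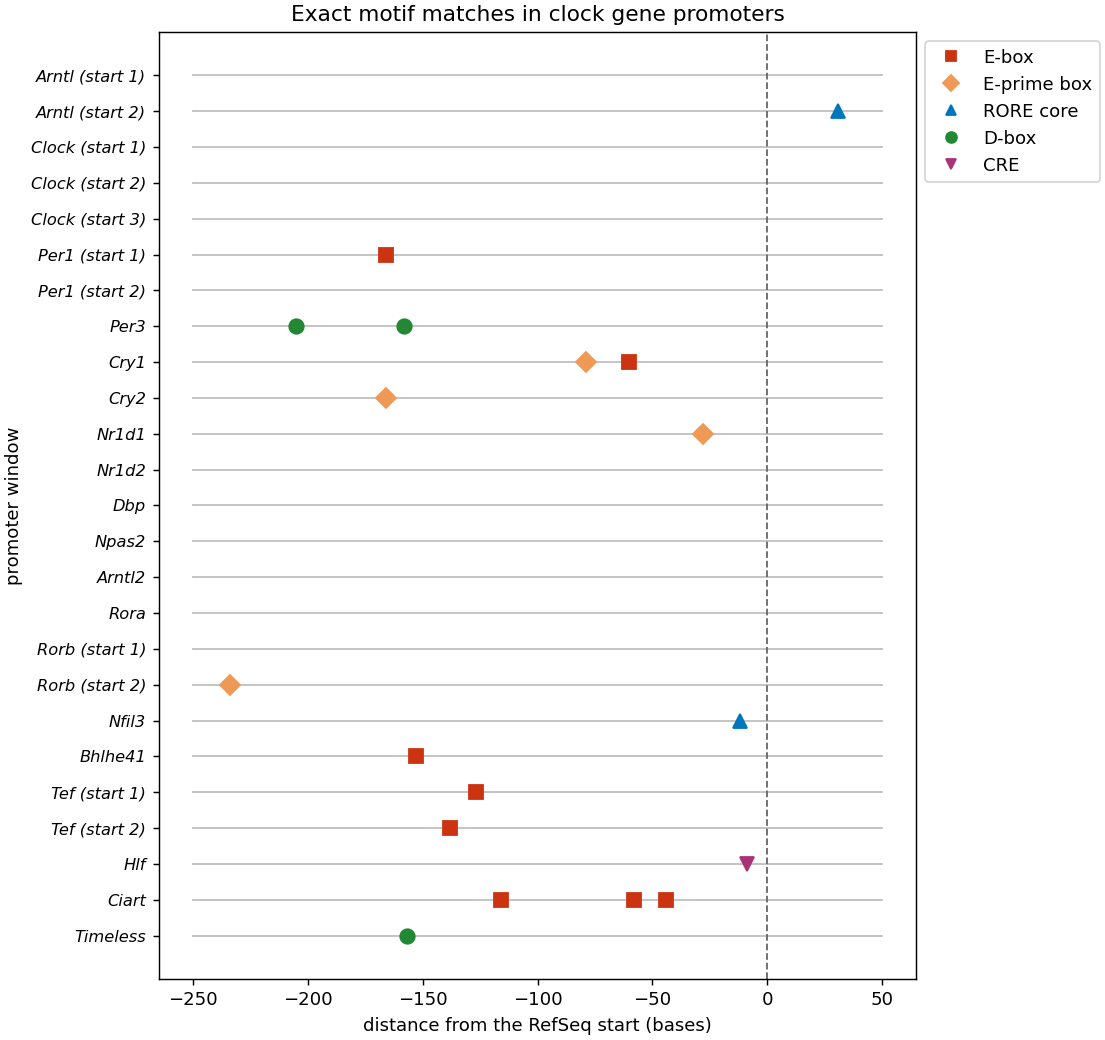
Positions of exact motif matches (symbols, by motif) in the promoter windows of the clock genes and the other clock factors, with distance from the RefSeq start in bases on the x axis and 1 line per window. *Ciart* has 3 E-boxes, at bases -116, -58 and -44, *Arntl* has its RORE core after the start, and the lines without a symbol are windows with no match.

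With 24 h of TGFβ, *Arntl*, *Per2* and *Nr1d2* rose and the other 7 clock genes did not pass the test. The genes that fell numbered 0 by edgeR, limma-voom and DESeq2 alike, and 0 also at an unadjusted p under 0.05 in edgeR. The rise was 1.57-fold for *Arntl*, 1.53-fold for *Per2* and 1.28-fold for *Nr1d2*. Of all 14334 genes tested, 40.7% passed the same test (edgeR's quasi-likelihood test with an adjusted p under 0.05), 20.5% higher and 20.1% lower, so the 3 called of 10 are a smaller share than that of genes at large, and nothing about the clock genes as a group is read from it. The same 3 genes had groups that did not overlap in CPM, against 53.3% of all genes tested. The median log2 fold change over the 10 clock genes was 0.12 with a range from -0.14 to 0.65, beside a median of -0.00 over all genes, and the median size without regard to sign was 0.146 against 0.208. For each of the 3 genes that rose, the exact two-sided permutation test of the CPM gave p = 0.1, the smallest that 3 libraries against 3 allow.

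**Figure D2:**
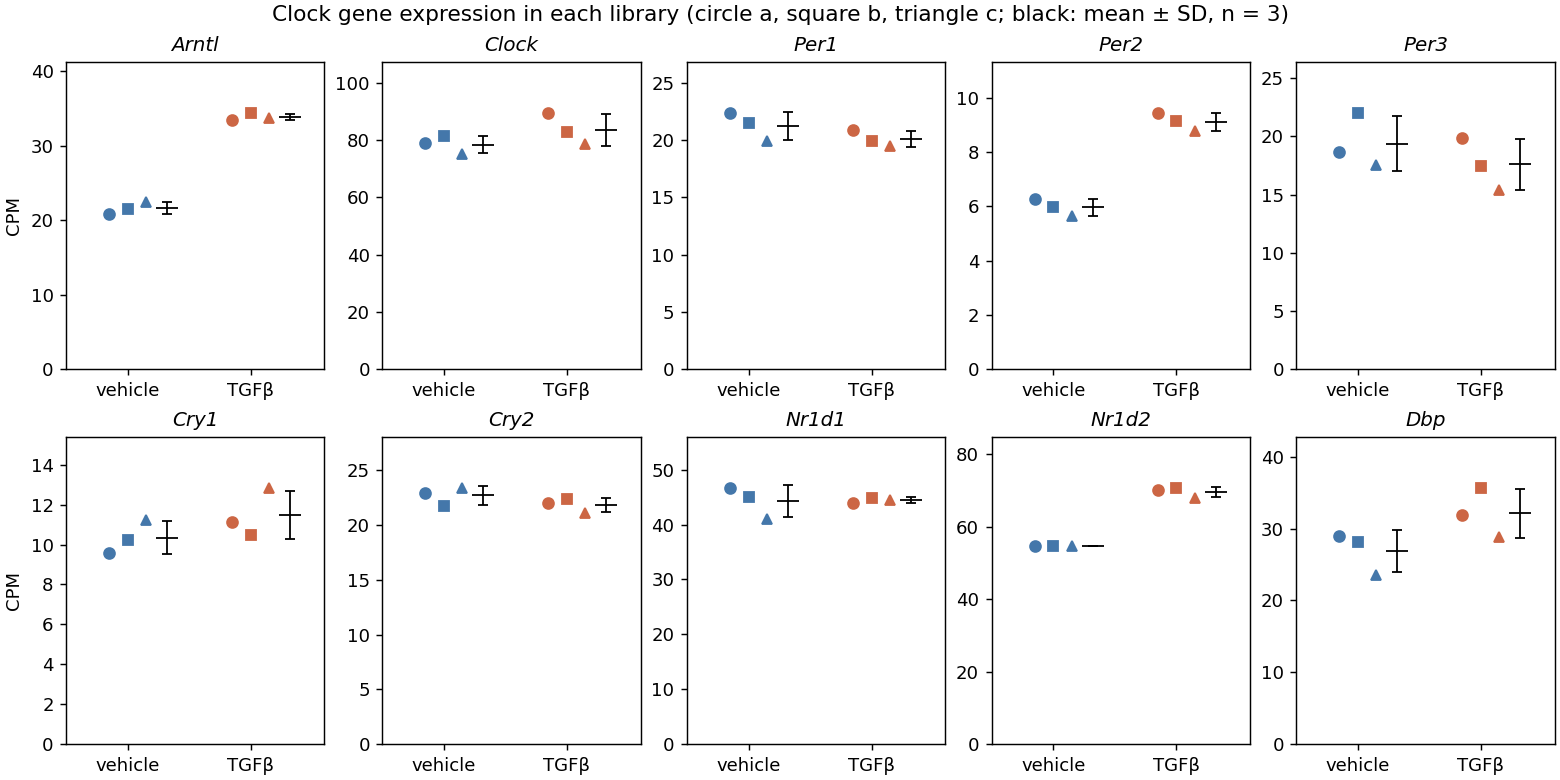
Expression of the 10 clock genes in CPM (y axis, from 0) in each vehicle (blue) and TGFβ (orange) library, with the mean ± SD in black (n = 3). The TGFβ libraries lie wholly above the vehicle libraries for *Arntl* (33.5 to 34.4 against 20.9 to 22.5 CPM), *Per2* and *Nr1d2*, and the groups overlap for the other 7 genes.

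Among the activators of the loop, *Arntl* rose, *Npas2* fell and *Clock* did not pass the test. *Arntl* (ENSMUSG00000055116, GRCm38 chr7:113207465-113314126, plus strand), which encodes the obligate partner of the activating complex, had 665, 640 and 672 counts in the vehicle libraries and 917, 960 and 964 counts with TGFβ, although the TGFβ libraries were smaller. Its level was 20.9, 21.6 and 22.5 CPM with vehicle and 33.5, 34.4 and 33.8 CPM with TGFβ. Every TGFβ library was above every vehicle library, with the lowest TGFβ value at 33.5 CPM and the highest vehicle value at 22.5 CPM. The vehicle libraries spread by 3.78% (CV), where counting alone gives 3.9%, and the TGFβ libraries by 1.29%. The spread within the TGFβ group therefore understates the error. The mean rose from 21.7 ± 0.819 to 33.9 ± 0.436 CPM (SD, n = 3), a log2 fold change of 0.65 (SE 0.0477, 95% interval 0.54 to 0.76, edgeR adjusted p = 5.62e-05).

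*Clock* (ENSMUSG00000029238, chr5:76209868-76304792, minus strand), which encodes the histone acetyltransferase that pairs with ARNTL, gave 78.8, 81.2 and 75.2 CPM with vehicle and 89.3, 82.6 and 78.4 CPM with TGFβ. The groups overlapped, since TGFβ library c lay below vehicle libraries a and b. The log2 fold change was 0.09 (SE 0.0561, 95% interval -0.04 to 0.22, edgeR adjusted p = 0.24). *Npas2*, the relative of *Clock* that can take its place beside ARNTL, went the other way from *Arntl*, with 270, 344 and 294 counts with vehicle and 99, 126 and 113 counts with TGFβ. It fell from 9.98 ± 1.56 to 4.03 ± 0.451 CPM (log2 fold change -1.31, SE 0.142, edgeR adjusted p = 0.00034). The highest TGFβ library for *Npas2* held 4.51 CPM and the lowest vehicle library 8.49 CPM. *Arntl2*, a paralog of *Arntl*, stood near 4 CPM in both groups (3.96 ± 0.499 and 4.07 ± 0.248 CPM, edgeR adjusted p = 0.819).

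Among the period genes, whose proteins inhibit ARNTL and CLOCK, *Per2* rose and *Per1* and *Per3* did not pass the test. *Per2* (ENSMUSG00000055866, chr1:91415982-91459324, minus strand) had 200, 177 and 168 counts with vehicle and 258, 255 and 250 counts with TGFβ, or 6.29, 5.97 and 5.63 CPM against 9.43, 9.13 and 8.77 CPM. The groups were well apart, with the lowest TGFβ library above the highest vehicle library by more than the range within either group. The log2 fold change was 0.61 (SE 0.0825, 95% interval 0.42 to 0.80, edgeR adjusted p = 0.000907). *Per2* was the least abundant of the 10 genes, at the percentile 29.6 of all tested genes by vehicle CPM, and its vehicle libraries spread by 5.48% (CV), less than the 7.42% that counting alone gives.

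*Per1* (ENSMUSG00000020893, chr11:69095217-69109960, plus strand), which is also an immediate early gene in many cells, gave 22.3, 21.5 and 19.9 CPM with vehicle and 20.8, 19.9 and 19.5 CPM with TGFβ. Only vehicle libraries a and b lay above every TGFβ library, and the log2 fold change of -0.08 had a 95% interval from -0.23 to 0.06 (edgeR adjusted p = 0.335). *Per3* (ENSMUSG00000028957, chr4:151003652-151044665, minus strand), which is a weaker inhibitor in the loop, gave 18.7, 22.0 and 17.5 CPM with vehicle and 19.8, 17.5 and 15.4 CPM with TGFβ. It was the most variable of the 10 genes among the vehicle libraries (CV 12%), the groups overlapped, and the 95% interval of its log2 fold change of -0.14 ran from -0.41 to 0.12 (edgeR adjusted p = 0.365).

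The cryptochromes, the strongest inhibitors of ARNTL and CLOCK, did not pass the test. *Cry1* (ENSMUSG00000020038, chr10:85131700-85185064, minus strand) gave 9.55, 10.2 and 11.2 CPM with vehicle and 11.1, 10.5 and 12.8 CPM with TGFβ, and vehicle library c lay above TGFβ libraries a and b. *Cry2* (ENSMUSG00000068742, chr2:92403646-92434043, minus strand) gave 23.0, 21.8 and 23.4 CPM with vehicle and 22.0, 22.4 and 21.1 CPM with TGFβ, which also overlapped. The 95% intervals of the log2 fold change were -0.08 to 0.38 for *Cry1* and -0.18 to 0.07 for *Cry2* (edgeR adjusted p = 0.267 and 0.444). The intervals leave room for a rise of *Cry1* of the size seen for *Nr1d2*, but not for a change of *Cry2* of that size in either direction.

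The REV-ERB genes, which encode repressors of *Arntl*, parted from each other. *Nr1d2* (ENSMUSG00000021775, chr14:18204054-18239127, minus strand) had 1737, 1619 and 1628 counts with vehicle and 1920, 1975 and 1937 counts with TGFβ. Its level was 54.6 CPM in each of the 3 vehicle libraries and 70.2, 70.7 and 68.0 CPM with TGFβ, so that every TGFβ library was higher. The vehicle libraries agreed within 0.0102% (CV), far closer than the 2.45% that counting alone gives, so this SD understates the error of the vehicle mean. The log2 fold change was 0.35 (SE 0.0358, 95% interval 0.27 to 0.43, edgeR adjusted p = 0.000244). Its SE rests on the spread of this gene over both groups, moved toward that of genes at large. The close agreement of the vehicle libraries therefore still enters it in part.

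*Nr1d1* (ENSMUSG00000020889, chr11:98767932-98775333, minus strand) gave 46.7, 45.0 and 41.1 CPM with vehicle and 43.9, 44.9 and 44.6 CPM with TGFβ. The 3 TGFβ libraries fell inside the range of the vehicle libraries. The means were 44.3 ± 2.89 and 44.5 ± 0.525 CPM, and the log2 fold change of 0.01 had a 95% interval from -0.12 to 0.13 (edgeR adjusted p = 0.934) and changed sign with the scaling of the libraries. The 95% intervals of the REV-ERB genes did not overlap, and a share of 2.7% of the 75-base windows of the *Nr1d2* transcript occurs in other genes, against 0% for *Nr1d1*. The 3' end of *Nr1d1* overlaps *Thra*, the thyroid hormone receptor alpha gene on the opposite strand, over 263 bases or 8.55% of the annotated exon bases of *Nr1d1*. *Thra* fell from 84.3 ± 2.87 to 41.2 ± 0.898 CPM (log2 fold change -1.03, edgeR adjusted p = 6.09e-06). The library kit keeps the strand, but the strand setting of the counting is not given in the sources used here, so reads from the shared bases cannot be assigned to either gene.

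*Dbp* (ENSMUSG00000059824, chr7:45705088-45710203, plus strand), a direct E-box target that drives D-box genes, had 922, 836 and 701 counts with vehicle and 874, 997 and 824 counts with TGFβ. Its level was 29.0, 28.2 and 23.5 CPM with vehicle and 31.9, 35.7 and 28.9 CPM with TGFβ. The groups overlapped narrowly, since vehicle library a was just above TGFβ library c. The log2 fold change of 0.26 (SE 0.101, 95% interval 0.02 to 0.49) did not pass (edgeR adjusted p = 0.0761). It passed without TGFβ library c (log2 fold change 0.32, edgeR adjusted p = 0.0386), and did not pass without any other single library. The 3' end of *Dbp* shares 539 bases, 18.0% of its annotated exon bases, with *Sphk2* on the opposite strand, whose counts of 945, 907 and 921 with vehicle and 769, 815 and 855 with TGFβ did not differ by the test (edgeR adjusted p = 0.323).

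**Figure D3:**
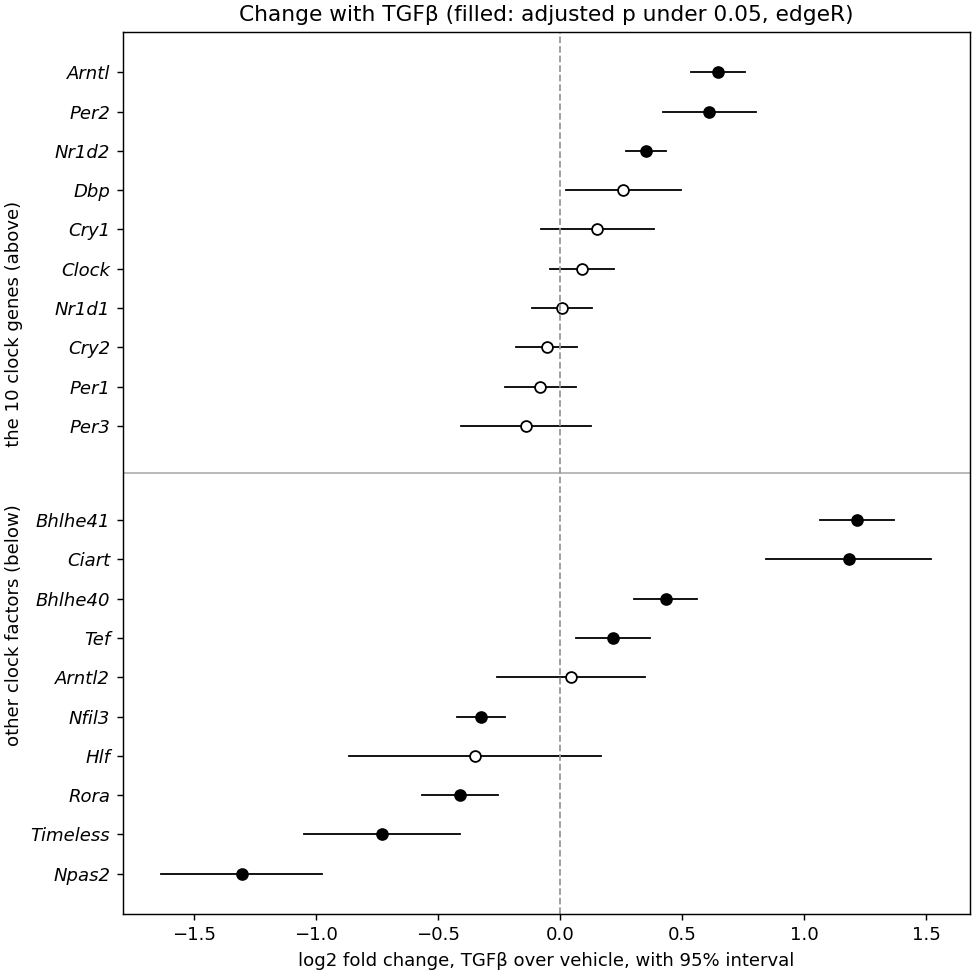
The log2 fold change of TGFβ over vehicle (x axis) with its 95% interval for each of the 10 clock genes (upper block) and the 10 tested other clock factors (lower block), filled where the edgeR adjusted p was under 0.05. The 3 clock genes that passed all lie to the right of 0, while the 8 other factors that passed lie on both sides, from -1.31 for *Npas2* to 1.22 for *Bhlhe41*.

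The factors that act on the same loop outside the 10 genes were read from a list of 12, of which 10 were tested. Of these, 4 rose and 4 fell, and the log2 fold changes ran from -1.31 to 1.22 around a median of -0.14, where 40.7% of all genes tested passed, 20.5% higher and 20.1% lower. Among these 10, the repressors of E-box genes were higher. Of the period genes and cryptochromes, whose proteins also inhibit ARNTL and CLOCK, only *Per2* rose. *Bhlhe41* (DEC2), with 491, 510 and 435 counts against 1015, 1011 and 1039, rose from 15.7 ± 1.33 to 36.6 ± 0.465 CPM (log2 fold change 1.22, edgeR adjusted p = 1.36e-05). Its relative *Bhlhe40* (DEC1) rose from 158.3 ± 8.58 to 213.5 ± 10.0 CPM (0.43, edgeR adjusted p = 0.000708). *Ciart* (CHRONO), which represses ARNTL and CLOCK, rose from 90, 88 and 66 counts to 180, 151 and 177 counts, or from 2.67 ± 0.402 to 6.07 ± 0.599 CPM (1.18, edgeR adjusted p = 0.000586). In each of these 3 repressors every TGFβ library was above every vehicle library.

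Of the factors that act on ROREs and D-boxes, *Rora* and *Nfil3* fell and *Tef* was higher. *Rora*, the ROR receptor that activates RORE genes such as *Arntl*, had 1825, 1928 and 1953 counts with vehicle and 1221, 1294 and 1430 with TGFβ, and fell by 0.41 on the log2 scale (62.6 ± 4.56 to 47.0 ± 2.83 CPM, edgeR adjusted p = 0.00215). *Rorb*, which encodes another receptor of that family, was too low to test, with at most 1 count in any library. *Nfil3* (E4BP4), the repressor that competes with DBP for D-boxes, had 1297, 1279 and 1233 counts against 894, 940 and 958 and fell by 0.33 (41.7 ± 1.23 to 33.3 ± 0.551 CPM, edgeR adjusted p = 0.000788). *Tef*, an activator of the DBP family, had 2186, 1865 and 1763 counts against 2053, 2157 and 1973 and was higher by 0.22 on the log2 scale (63.6 ± 4.83 to 73.8 ± 4.15 CPM, edgeR adjusted p = 0.0323). *Hlf*, the remaining member of that family, was at 101, 164 and 121 counts against 76, 109 and 94, with overlapping groups (-0.35, edgeR adjusted p = 0.248). The call for *Tef* was lost without vehicle library b or c or TGFβ library a or b, with edgeR adjusted p of 0.0909, 0.0877, 0.0899 and 0.102.

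*Timeless*, which in mammals acts mainly at the replication fork, fell from 190, 179 and 211 counts to 97, 96 and 128 counts (log2 fold change -0.73, edgeR adjusted p = 0.00427). It moved beside the proliferation genes given above, and their part in its fall was not tested. The promoter letters are set beside these changes as a description only. The RORE core was found in *Arntl*, which rose, and in *Nfil3*, which fell. The E-box was found in *Ciart* (3 matches, in the sequence printed above), *Bhlhe41* and *Tef*, which were higher, and in *Per1* and *Cry1*, which did not pass the test.

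Kinase subunits, ubiquitin ligase subunits and other proteins that act on clock proteins, called modifiers here, formed a list of 13, all tested. In it 7 were higher and 3 lower, with a median log2 fold change of 0.11, against 20.5% higher and 20.1% lower among all genes tested. DESeq2 called 6 higher and 2 lower. The 3 largest changes were in *Fbxl21*, a ligase subunit that binds cryptochromes, *Prkaa2*, a catalytic subunit of the AMP-activated kinase that marks CRY1 for degradation, and *Usp2*, a deubiquitinase. *Fbxl21* fell from 2.13 ± 0.184 to 1.19 ± 0.302 CPM (-0.83, edgeR adjusted p = 0.0141). The call for *Fbxl21* was lost without TGFβ library a (edgeR adjusted p = 0.0537) and without vehicle library c and TGFβ library c together (0.0731), a setting chosen after seeing the data because these libraries were highest in endothelial markers. *Prkaa2* rose from 3.88 ± 0.692 to 6.00 ± 0.423 CPM (0.63, edgeR adjusted p = 0.0114). *Usp2* fell from 4.21 ± 0.299 to 3.14 ± 0.211 CPM (-0.42, edgeR adjusted p = 0.0239), and that call was lost without vehicle library a or b or TGFβ library b or c, with edgeR adjusted p of 0.0618, 0.087, 0.0592 and 0.0657. It was also lost by DESeq2 (adjusted p = 0.0729) and without both c libraries (edgeR adjusted p = 0.0556). All 3 were low, and the changes of the abundant kinases were smaller: *Csnk1e*, which phosphorylates PER proteins, was higher by 0.23 and *Csnk1d*, its close relative, was at 0.02 and did not pass (edgeR adjusted p = 0.00621 and 0.785). These kinases were picked after their values were seen, for their role on PER proteins.

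Genes known to follow the clock or to respond to glucocorticoid, a clock-setting signal, formed a list of 10, all tested. Of these, 2 were higher and 5 lower, against 20.5% and 20.1% of all genes tested. The median log2 fold change of the list was -0.10. *Lonrf3* had 75, 68 and 79 counts with vehicle and 24, 32 and 36 with TGFβ, a fall of 1.15 on the log2 scale (edgeR adjusted p = 0.00186). *Tspan4*, a tetraspanin, fell from 296.3 ± 14.7 to 207.2 ± 17.0 CPM (-0.52, edgeR adjusted p = 0.000787). *Fkbp5*, a glucocorticoid-responsive chaperone partner, rose from 27.5 ± 1.86 to 39.9 ± 3.06 CPM (0.54, edgeR adjusted p = 0.000914). *Tsc22d3*, another glucocorticoid-responsive gene of the list, did not pass and its groups overlapped (0.15, edgeR adjusted p = 0.42). *Tsc22d3* was picked after its values were seen, to stand beside *Fkbp5*. *Usp2* is in this list as well. The count of 7 rested on borderline members: it was 4 without vehicle library b, 5 without any other single library, and 5 by DESeq2 with 2 higher and 3 lower.

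Compared per length, as CPM per kb of annotated exon, the level of the clock genes in the vehicle libraries ran from 14.4 for *Nr1d1* down to 1.02 for *Per2*. The order of levels was *Nr1d1*, *Nr1d2* (10.1), *Dbp* (8.98), *Clock* (5.71), *Per1* (3.77), *Cry2* (3.59), *Cry1* (3.10), *Arntl* (2.88), *Per3* (2.02) and *Per2*. Among neighbours in that order, *Per1* and *Cry2*, and *Cry1* and *Arntl*, overlapped between libraries, and the other neighbours did not. With TGFβ, *Arntl* stood at 4.51 CPM per kb and moved from place 8 to place 5, above *Per1* (3.57), *Cry2* (3.46) and *Cry1* (3.44), whose libraries overlapped one another and lay below all 3 *Arntl* libraries. *Per2* at 1.56 CPM per kb reached the range of *Per3* (1.83), with its highest library at 1.61 and the lowest *Per3* library also at 1.61. The first 4 places did not change. The length is that of all annotated exons of a gene joined together, 13.7 kb for *Clock*, so a gene with long exons that these cells do not use is placed too low.

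**Figure D4:**
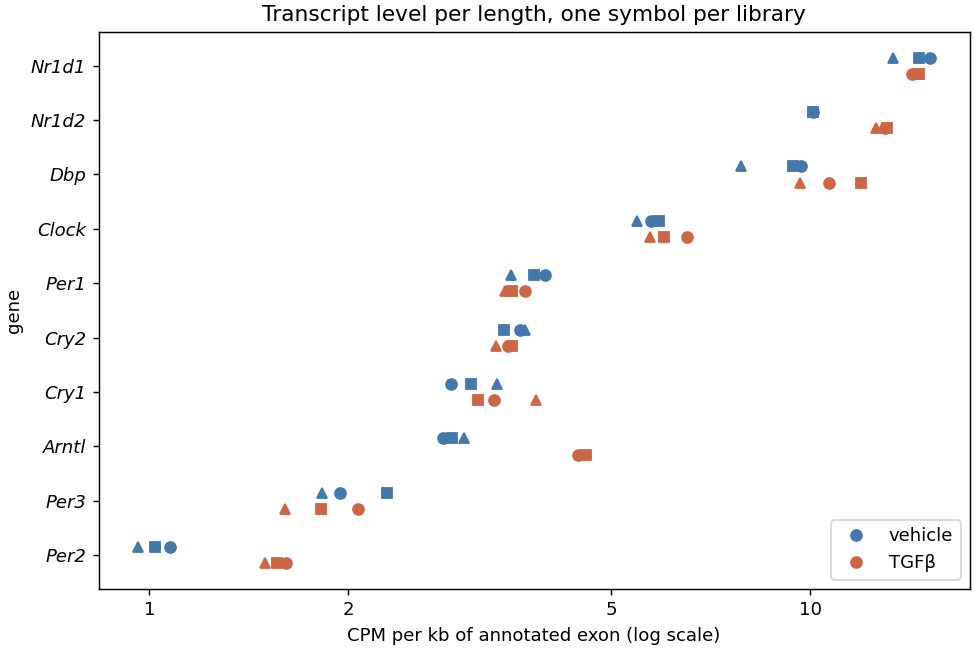
Levels in CPM per kb of annotated exon (x axis, log scale) of the 10 clock genes, 1 symbol per library, vehicle in blue and TGFβ in orange, ordered by vehicle level. The 3 TGFβ libraries of *Arntl* (4.46 to 4.57) lie right of every *Cry1*, *Cry2* and *Per1* library, whereas its vehicle libraries (2.78 to 3.00) lie among or below them.

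Ratios of counts within a library do not depend on the scaling between libraries, and were taken for 4 pairs of clock genes. The log2 ratio of *Arntl* to *Nr1d1*, an activator and its own target and repressor, was -1.16, -1.06 and -0.87 with vehicle and -0.39, -0.39 and -0.40 with TGFβ. The groups were apart, and the mean difference was 0.64. The ratio of *Arntl* to *Dbp* was -0.47, -0.39 and -0.06 against 0.07, -0.05 and 0.23, a difference of 0.39 with groups that only just missed each other. The ratios of *Per1* to *Per3* and of *Cry1* to *Cry2* overlapped between the groups, with differences of 0.06 and 0.20. So *Arntl* stood higher against *Nr1d1* in every TGFβ library than in any vehicle library. Counting alone gives a CV of 3.9% for *Arntl*, 2.72% for *Nr1d1* and 3.49% for *Dbp* with vehicle. For *Arntl* to *Dbp*, the gap between the groups (-0.061 against -0.055) lies inside that counting error, so no separation is read from it. The TGFβ libraries agreed in *Arntl* to *Nr1d1* (SD 0.00582) more closely than counting alone gives, so this SD understates the error.

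Another 3 ratios were chosen after the values were seen, and are given as a description. The log2 ratio of *Per2* to *Per1* was the steadiest of these 3, at -1.83, -1.85 and -1.82 with vehicle and -1.14, -1.13 and -1.15 with TGFβ, a difference of 0.69. That of *Nr1d2* to *Nr1d1* went from 0.23, 0.28 and 0.41 to 0.68, 0.65 and 0.61, a difference of 0.34. That of *Npas2* to *Clock* went from -3.21, -2.81 and -2.93 to -4.62, -4.20 and -4.31, a difference of -1.39. In each of these 3 pairs of relatives the groups did not overlap. Counting alone gives a CV of 7.42% for *Per2* and 3.93% for *Per1* with vehicle. The libraries agreed more closely in the ratio of *Per2* to *Per1* than that, so its SD understates the error.

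**Figure D5:**
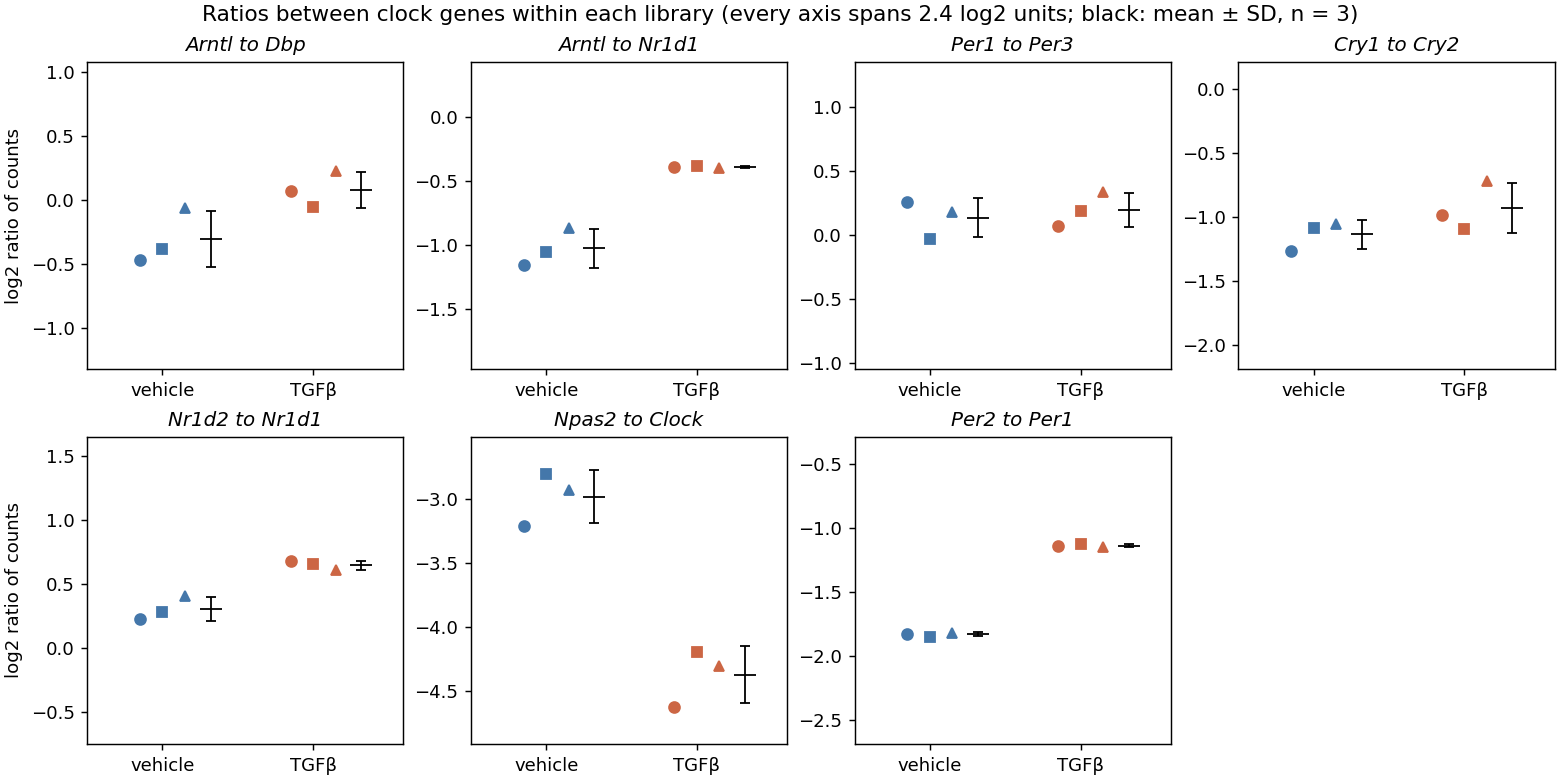
The log2 ratio of counts between 2 clock genes (y axis, every panel spanning 2.4 log2 units) within each vehicle (blue) and TGFβ (orange) library, with mean ± SD in black (n = 3). The upper panels hold the ratios set out first and the lower panels those chosen after the values were seen. The groups of *Per2* to *Per1* are narrower than counting error (SD 0.0154 and 0.0120), so these SDs understate the error.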

How the data were processed

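Per the labels and the study's methods, stranded poly(A) libraries of 6 fibroblast cultures were read as single ends of 75 bases. The authors deposited whole-number counts of reads per gene, not normalized, with mm10 and DESeq2 named in the submitters' processing notes. The aligner, counter, annotation and strand setting are not given in the sources used here. The study's results section names embryonic fibroblasts, whereas its methods and the labels name cardiac fibroblasts, and the methods give 24 h of low serum where the labels give 16 h. The table's columns of the authors' own mean, fold change and p-values were not used.

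From the counts, edgeR 4.0.16 (R 4.3.3) gave TMM factors, CPM, the filterByExpr filter and the quasi-likelihood test with a Benjamini-Hochberg adjustment over 14334 genes, with all 6 libraries and no covariate. The SE is the fold change over the square root of F, and the 95% interval uses the test's degrees of freedom. The biological coefficient of variation was 7.97%. The steps were run on simulated counts with far fewer changed genes than were called here and a single dispersion for all genes. That run checks the code and not the calls made here. Exon lengths came from GENCODE M21 and promoters from RefSeq (GRCm38.p6). Positions are those of a match's first base, counted from the start.

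Genes named are the 10 clock genes, all other clock factors, the 3 largest called changes of the other lists plus any of at least 1 on the log2 scale, genes sharing exon bases with a clock gene, *Acta2* and *Postn*, and 1 result that this rule takes in is not reported here. The members and lists were chosen with earlier results of these data known. Alternatives were DESeq2 1.42.0, limma-voom 3.58.1, other scalings, filters and thresholds, and libraries left out.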

Additional observations from a re-analysis of the deposited data

How the results depend on the processing

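*Arntl*, *Per2* and *Nr1d2* stayed higher and past the threshold in all 13 alternative fits, with log2 fold changes of 0.62 to 0.68, 0.57 to 0.65 and 0.33 to 0.36, and adjusted p of 7.39e-14 to 0.000627, 6.15e-05 to 0.00561 and 2.2e-07 to 0.00213 over edgeR, limma-voom and DESeq2. The clock genes called numbered 3 in the main test, 3 to 4 with each library left out, 4 without both libraries highest in endothelial markers (vehicle c and TGFβ c, chosen after seeing the data) and 2 beyond a log2 fold change of 0.5. *Dbp* was the added gene, at 0.24 with edgeR adjusted p = 0.0321 without both c libraries, and its adjusted p ran from 0.0321 to 0.226 over the alternatives. *Nr1d1* reversed to -0.014 with upper quartile scaling, -0.002 with a filter of 1 CPM in 3 libraries and -0.049 without both c libraries, and ranged from -0.044 to 0.047 with each library left out. *Arntl2* ranged from -0.0577 to 0.117 in the same way. Neither passed in any of these fits, and the cause was not tested. Calls of the other clock factors were 4 beyond a log2 fold change of 0.5 against 8, and 7 to 8 with each library left out. Calls of the modifiers were 5 at an adjusted p of 0.01 and 2 beyond 0.5 against 10, and 8 to 9 with each library left out. For the genes that follow the clock or respond to glucocorticoid, calls were 4 at an adjusted p of 0.01 and 3 beyond 0.5, against 7. Their calls were 4 without both c libraries and 4 to 5 with each library left out. The median of all genes moved by at most 0.02 (log2) under any scaling. The differences in log2 ratio with each library left out ranged from 0.304 to 0.509 for *Arntl* to *Dbp*, 0.572 to 0.719 for *Arntl* to *Nr1d1*, -0.0231 to 0.126 for *Per1* to *Per3* and 0.0962 to 0.284 for *Cry1* to *Cry2*.

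No paired analysis was possible because the count columns name the group of a library and no replicate number. The design has 1 time point and 3 libraries a group, so the test misses small changes of genes near the level of *Per2*, and rhythm, protein and phase were not measured.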

Other observations

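Within each group, library c was the lowest for most clock genes, an order noticed after the values were seen. Library c was the lowest for 7 of the 10 clock genes in each group. With vehicle these were *Clock*, *Per1*, *Per2*, *Per3*, *Nr1d1*, *Nr1d2* and *Dbp*, and with TGFβ they were *Clock*, *Per1*, *Per2*, *Per3*, *Cry2*, *Nr1d2* and *Dbp*. For *Nr1d2* with vehicle the order rests on differences far below counting error. The share of all genes with library c lowest was not counted, so nothing particular to the clock genes is read from this order. Over all genes, library c also differed most from the others of its group. The chi-square per gene was 18.5 and 13.6 against 7.95 between a and b with vehicle, and 16.4 and 27.1 against 11.5 with TGFβ. *Cry1* was highest in library c of both groups, where it reached 11.2 CPM in the vehicle group and 12.8 CPM in the TGFβ group. The same libraries held the highest level of all 6 endothelial markers, with sums of 594.5 and 460.4 CPM, and their part in the order was not tested. The letters follow the columns of the table and do not link a vehicle library to a TGFβ library.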
